A study of Mus musculus with 6 samples.

Results

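The epidermal growth factor (EGF) family is a set of small secreted or membrane-shed ligands and the ErbB receptor tyrosine kinases they bind. The 10 genes described here are the ligands Btc, Nrg4, Nrg1, Hbegf, Areg, Tgfa and Egf and the receptors Egfr, Erbb3 and Erbb4. They were found by gene symbol, 1 row each, in a count table of 45777 genes. Messenger RNA was measured by RNA sequencing in brown adipose tissue, the heat-producing fat of small mammals. The tested mice were given ginsenoside Rb2, a steroid-like saponin of ginseng, by injection into the peritoneum over 2 weeks, and the control mice were given phosphate-buffered saline (PBS). All were wild-type C57Bl6/J males, with 3 mice per group and 1 library per mouse (ages and doses: not given in the labels). The libraries are named by the numbers of their columns, Rb2 1, 3 and 4 and PBS 1, 2 and 4. The family was chosen by name with the Rb2 against PBS results of these libraries already known. The values of that comparison are therefore a description of the members, and nothing is read from how many of them passed the test.

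EGF-family ligands are made as membrane-bound precursors and released by proteases of the ADAM group. Egf, Tgfa and Areg encode ligands of the EGF receptor (Egfr). Btc (betacellulin) and Hbegf (heparin-binding EGF-like growth factor) bind both the EGF receptor and Erbb4, while Nrg1 binds Erbb3 and Erbb4 and Nrg4 binds Erbb4. Ligand binding joins receptors in pairs and starts the Ras, mitogen-activated protein kinase and phosphatidylinositol 3-kinase pathways. Nrg4 (neuregulin 4) is known as a factor secreted by brown fat that acts through Erbb4.

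Promoter windows of 300 bases, from 250 bases before to 50 after a transcript start, were read from RefSeq sequence of GRCm38.p6 for 7 of the 10 members. Those of Btc (chr5:91402945-91403244, minus strand), Nrg4 (chr9:55283576-55283875, minus strand), Erbb4 (chr1:69108010-69108309, minus strand) and Areg (chr5:91139349-91139648, plus strand) are shown. The first 3 are the members whose libraries were all higher with Rb2, and Areg is a ligand on the same chromosome as Btc with no reads at all. The Nrg4 and Erbb4 windows are at transcript starts inside their genes, which reach to 55283654 and 69108576. Capitals mark CpG dinucleotides.
Btc: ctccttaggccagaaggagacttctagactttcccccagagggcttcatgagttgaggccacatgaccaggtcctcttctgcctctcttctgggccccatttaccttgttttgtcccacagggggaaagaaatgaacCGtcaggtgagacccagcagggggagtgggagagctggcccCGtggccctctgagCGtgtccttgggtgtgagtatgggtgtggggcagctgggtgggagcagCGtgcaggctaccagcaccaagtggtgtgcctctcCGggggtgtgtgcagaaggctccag
Nrg4: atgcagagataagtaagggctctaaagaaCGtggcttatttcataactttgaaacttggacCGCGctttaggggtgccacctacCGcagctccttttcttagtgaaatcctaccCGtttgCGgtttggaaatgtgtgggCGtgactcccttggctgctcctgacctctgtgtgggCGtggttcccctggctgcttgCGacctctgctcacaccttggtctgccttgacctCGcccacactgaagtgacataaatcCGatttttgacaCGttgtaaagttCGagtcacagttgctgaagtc
Erbb4: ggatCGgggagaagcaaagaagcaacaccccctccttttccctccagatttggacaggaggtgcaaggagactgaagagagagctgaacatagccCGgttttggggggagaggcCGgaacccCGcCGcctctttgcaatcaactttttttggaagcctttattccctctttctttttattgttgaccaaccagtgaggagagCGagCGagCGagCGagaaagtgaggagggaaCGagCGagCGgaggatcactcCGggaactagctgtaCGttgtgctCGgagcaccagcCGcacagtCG
Areg: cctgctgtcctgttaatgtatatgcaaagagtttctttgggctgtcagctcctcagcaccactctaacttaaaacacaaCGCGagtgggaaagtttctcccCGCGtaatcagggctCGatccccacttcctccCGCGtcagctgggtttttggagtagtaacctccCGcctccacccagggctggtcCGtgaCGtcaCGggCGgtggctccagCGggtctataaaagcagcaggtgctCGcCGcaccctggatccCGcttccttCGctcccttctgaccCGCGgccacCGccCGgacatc

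The Btc window held 5 CpG dinucleotides at a GC content of 60.3%, an observed over expected ratio of 0.187. The Nrg4, Erbb4 and Areg windows held 13, 17 and 21 of them, with ratios of 0.667, 0.751 and 0.819. Both strands of the windows were searched for 8 motifs, of which 3 were in the Areg window: the cAMP response element TGACGTCA at 61 to 54 bases before the start, the TATA box TATAAA at 31 to 26 bases before it, and the GC box GGGCGG on both strands. Among 32544 distinct promoter windows of the same length, TGACGTCA was in 1.80%, TATAAA in 13.6% and GGGCGG in 35.9%. The Btc, Nrg4 and Erbb4 windows held none of these 3 and none of the E-box CACGTG (in 7.17% of windows), the D-box TTACGTAA (0.120%) or its variant TTATGTAA (0.931%), the direct repeat DR1 (0.0399%) or CCAAT (37.4%). No motif holds the letters of another. Matches are letters in the window and do not show binding.

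Total counts ran from 83642183 to 92666780 per library, and 16707 genes passed the filter on low counts and were tested with edgeR (quasi-likelihood test, Benjamini-Hochberg adjustment over all tested genes, threshold 0.05). Of these, 1743 were called, 890 higher and 853 lower with Rb2; scaled by library size alone the split was 492 higher and 779 lower, and after a GC and length correction 809 higher and 511 lower. Levels are CPM, counts scaled to TMM-normalised library sizes, with errors as SD over 3 libraries. Brown adipocyte markers were abundant throughout, with a summed level of 13411 to 17637 CPM with Rb2 and 16083 to 17487 CPM with PBS over 10 genes, of which only Elovl3, a fatty acid elongase, passed the test (lower with Rb2). The libraries differed in skeletal muscle transcripts: the 12 muscle markers summed to 0.744, 423 and 248 CPM in Rb2 1, 3 and 4 and to 2254, 6842 and 7.70 CPM in PBS 1, 2 and 4, with 8 of the 12 at 0 in Rb2 1. None of the 12 passed the test. The log2 fold changes with these markers as a covariate are given below for Btc, Hbegf, Egf and Erbb4.

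Of the 10 members 8 were tested, and 1, Btc, passed the threshold; over all tested genes 10.4% did. The groups did not overlap for 4 of the 8, with Btc, Nrg4 and Erbb4 higher and Hbegf lower with Rb2, where 35.8% of all tested genes did not overlap. The median log2 fold change was 0.14 over the 8 and -0.01 over all tested genes. The 8 are the members that were high enough in some libraries to be tested. Nrg1 and Areg fell under the filter.

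**Figure D1:**
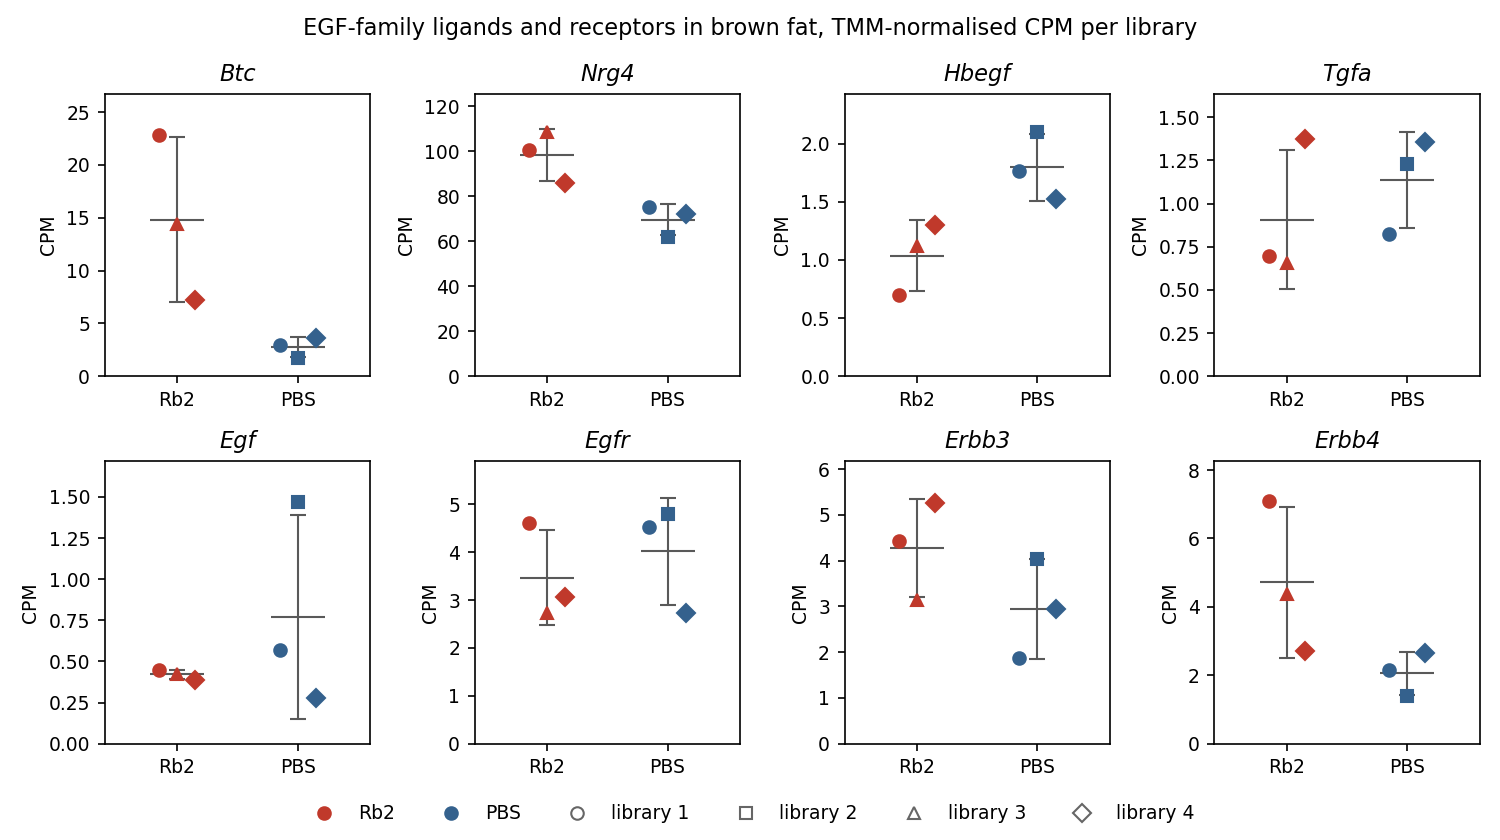
Level of the 8 tested ligands and receptors in each library (TMM-normalised CPM, linear axes from 0; symbols give the library number; bars are mean and SD of 3 libraries). The Rb2 libraries of Btc, at 7.18 to 22.8 CPM, all lie above the PBS libraries, at 1.75 to 3.57 CPM, while those of Tgfa, Egf, Egfr and Erbb3 overlap with PBS.

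Btc, the ligand of both the EGF receptor and Erbb4 (gene 12223; chromosome 5, 91357261 to 91402994 in GRCm38.p6), had the largest difference of the family. It was at 22.8, 14.4 and 7.18 CPM in Rb2 1, 3 and 4, against 2.92, 1.75 and 3.57 CPM in PBS 1, 2 and 4. These values come from 1934, 1191 and 664 reads with Rb2 and 237, 169 and 349 reads with PBS. Every Rb2 library lay above every PBS library, while the Rb2 libraries themselves spread 3.18-fold. The means were 14.8 ± 7.83 and 2.75 ± 0.923 CPM, a ratio of 5.39. Btc rose by a log2 fold change of 2.43 ± 0.50 SE (95% interval 1.18 to 3.68, adjusted p = 0.0408). In bulk tissue such a value cannot tell more cells of a type from more RNA per cell.

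Btc passed the threshold in 7 of 17 alternatives, and its log2 fold change was between 1.98 and 2.76 in all 17. The adjusted p was 0.0646 with limma-voom, 0.0616 with no filter on low counts, 0.444 without PBS 1 and PBS 2 and 0.336 with a block on the column numbers, which uses 4 libraries. With 1 library left out, the adjusted p was 0.0592 without Rb2 1, 0.103 without Rb2 3, 0.128 without PBS 1, 0.124 without PBS 2 and 0.0627 without PBS 4, and it was 0.00913 without Rb2 4. The Btc transcript has a GC content of 37.7%, lower than that of all but 1.87% of tested genes, and genes of low GC content were relatively higher in the Rb2 libraries (Spearman rho of -0.33 across tested genes, which are not independent replicates). Corrected for GC content and length, the log2 fold change of Btc was 2.14 (adjusted p = 0.0613). With the muscle markers as a covariate it was 2.04 (adjusted p = 0.0247).

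Btc stands at one end of a group of ligand genes on chromosome 5. Epgn (epigen), Ereg (epiregulin), Areg and Btc lie in this order within 375 kb of GRCm38.p6, with 209 kb between the end of Areg and Btc. Areg (amphiregulin; 91139599 to 91148432) had 0 reads in all 6 libraries, which allows at most 3 reads, or 0.0370 CPM in the library with the highest floor. Ereg had 0 reads in all 6 as well. Epgn had 0, 10 and 0 reads in Rb2 1, 3 and 4 and 0, 6 and 8 reads in PBS 1, 2 and 4. Of these 4 neighbours Btc alone was expressed high enough to be tested in this tissue. Floors and intervals of this kind cover counting error only.

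Nrg4 (gene 83961; chromosome 9, 55220222 to 55283654) was the most abundant member by far. It was at 100.4, 109 and 85.8 CPM in Rb2 1, 3 and 4, against 75.0, 61.9 and 71.9 CPM in PBS 1, 2 and 4. Its groups did not overlap, and its libraries spread 1.27-fold with Rb2 and 1.21-fold with PBS, the tightest of the tested members in PBS. The means were 98.3 ± 11.6 and 69.6 ± 6.86 CPM, a log2 fold change of 0.50 ± 0.14 SE (95% interval 0.18 to 0.81, adjusted p = 0.0526), just outside the threshold.

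Nrg4 passed without Rb2 4 (adjusted p = 0.0290), with a count minimum of 50 (adjusted p = 0.0441) and under DESeq2's Wald test (adjusted p = 0.00959). It passed in none of the other 14 alternatives, in which the adjusted p ran up to 0.50. The log2 fold change lay between 0.34 and 0.58 in all 17. The gene overlaps Fbxo22, which encodes an F-box protein, by 4212 bases, and whether counting used strand is not given, so reads of the shared stretch cannot be assigned. Reads of Nrg4 per read of Fbxo22 were 6.26, 7.46 and 4.92 in Rb2 1, 3 and 4 and 4.26, 3.65 and 4.40 in PBS 1, 2 and 4.

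Hbegf was the one member whose libraries were all lower with Rb2. It had 0.697, 1.11 and 1.30 CPM in Rb2 1, 3 and 4, from 59, 92 and 120 reads, against 1.76, 2.10 and 1.52 CPM in PBS 1, 2 and 4, from 143, 203 and 149 reads. The log2 fold change was -0.79 ± 0.29 SE (95% interval -1.45 to -0.13) and did not pass (adjusted p = 0.109; 0.0688 to 0.634 over the alternatives). Its log2 fold change stayed between -0.99 and -0.55, and was -0.59 with the muscle markers as a covariate (adjusted p = 0.215). In PBS the libraries stood in the order of their summed muscle markers, and Rb2 1 was the lowest library in both. Rb2 3 and Rb2 4 stood in opposite orders. The part of muscle in the Hbegf values was not tested.

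Tgfa (transforming growth factor alpha) had overlapping groups. It was at 0.697, 0.654 and 1.37 CPM in Rb2 1, 3 and 4, against 0.826, 1.23 and 1.36 CPM in PBS 1, 2 and 4 (log2 fold change -0.33 ± 0.36 SE, 95% interval -1.14 to 0.48, adjusted p = 0.573). In both groups library 4 was the highest.

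Egf was low in this tissue, with 38, 35 and 36 reads in Rb2 1, 3 and 4 and 46, 142 and 27 reads in PBS 1, 2 and 4. The Rb2 libraries lay close together, at 0.449, 0.424 and 0.389 CPM, inside the range of the PBS libraries at 0.567, 1.47 and 0.276 CPM. The log2 fold change was -0.87 ± 0.55 SE (95% interval -2.11 to 0.36, adjusted p = 0.312). PBS 2, the highest library, also had the highest sum of the 12 muscle markers, 6842 CPM, and without it the log2 fold change was -0.01 (adjusted p = 0.995). With the muscle markers as a covariate it was -0.28 (adjusted p = 0.820). Epithelial markers, of which 4 of 5 fell under the filter, summed to 0.242 to 0.346 CPM with Rb2 and 0.256 to 0.962 CPM with PBS, highest in PBS 2. The PBS 2 sum was mostly Cdh1 (0.734 CPM) and Krt19 (0.196 CPM), while Epcam had 3 reads and Krt8 and Krt18 had 0.

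Nrg1 (neuregulin 1), a ligand of Erbb3 and Erbb4, had 0 reads in 5 libraries and 8 reads in PBS 2. It was not tested. The 3-read floor ran from 0.0307 to 0.0370 CPM across the libraries.

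Among the receptors, Erbb4, which binds neuregulins, Btc and Hbegf (gene 13869; chromosome 1, 68031884 to 69108576), was higher in every Rb2 library than in any PBS library, by a narrow margin. It was at 7.09, 4.36 and 2.72 CPM in Rb2 1, 3 and 4, against 2.16, 1.39 and 2.64 CPM in PBS 1, 2 and 4. The gap between Rb2 4 and PBS 4 was small beside the spread of 2.61-fold within the Rb2 libraries. The log2 fold change was 1.20 ± 0.37 SE (95% interval 0.35 to 2.05, adjusted p = 0.0746).

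Erbb4 passed under DESeq2's Wald test (adjusted p = 0.00738) and without Rb2 4 (adjusted p = 0.0236), and in none of the other 15 alternatives. Its log2 fold change ran from 0.78 without Rb2 1 to 1.47 without Rb2 4, and was 1.01 corrected for GC content and length (adjusted p = 0.138) and 0.83 with the muscle markers as a covariate (adjusted p = 0.113). Its transcript GC content of 40.6% is lower than that of all but 7.49% of tested genes.

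Btc and Erbb4 ranked the libraries in the same order: Rb2 1, Rb2 3, Rb2 4, PBS 4, PBS 1 and PBS 2, from high to low. Reads of Btc per read of Erbb4, a ratio in which depth cancels, were 3.22, 3.31 and 2.63 in Rb2 1, 3 and 4 and 1.35, 1.26 and 1.35 in PBS 1, 2 and 4. The ratio varied less within each group than either gene did alone, and the groups did not overlap in it. Both genes have transcripts of low GC content, and no test was made on this ratio. In PBS the shared order was the reverse of that by summed muscle markers, and Rb2 1 had the lowest muscle sum. Rb2 3 stood above Rb2 4 in both genes and in the muscle sum. The part of muscle in the shared order was not tested.

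**Figure D2:**
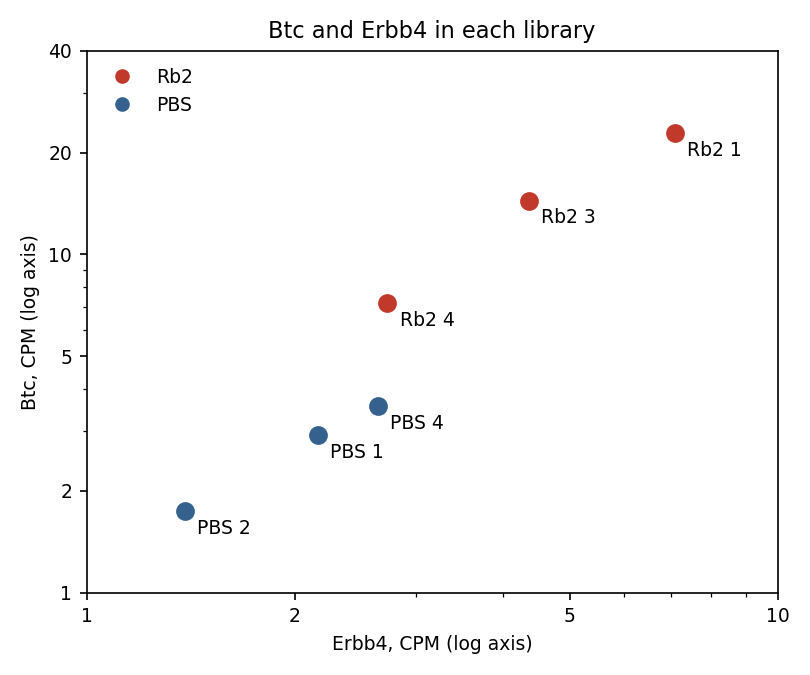
Btc against Erbb4 in each of the 6 libraries (TMM-normalised CPM, log axes; 1 point per library). The 3 Rb2 points lie above and to the right of the 3 PBS points, and Rb2 4 (Btc 7.18, Erbb4 2.72 CPM) and PBS 4 (3.57, 2.64 CPM) are next to each other on the Erbb4 axis.

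Egfr, the receptor of EGF, TGF-alpha and amphiregulin (gene 13649; chromosome 11, 16752203 to 16913907), had overlapping groups. It was at 4.60, 2.74 and 3.07 CPM in Rb2 1, 3 and 4, against 4.53, 4.80 and 2.73 CPM in PBS 1, 2 and 4. The log2 fold change was -0.21 ± 0.28 SE (95% interval -0.83 to 0.41, adjusted p = 0.637), and a change of 1 log2 unit in either direction lies outside the interval.

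Erbb3, a receptor with an impaired kinase that signals through its partner (gene 13867; chromosome 10, 128567523 to 128589635), overlapped between the groups too. It was at 4.43, 3.15 and 5.26 CPM in Rb2 1, 3 and 4, against 1.86, 4.03 and 2.94 CPM in PBS 1, 2 and 4 (log2 fold change 0.54 ± 0.30 SE, 95% interval -0.14 to 1.22, adjusted p = 0.261). Erbb3 is also expressed by Schwann cells, the glia of peripheral nerves. The 7 Schwann cell markers summed to 100.4, 127 and 149 CPM in Rb2 1, 3 and 4 and to 85.5, 236 and 111 CPM in PBS 1, 2 and 4; 6 were tested and none passed, and Pmp2, a myelin protein gene, was at 0 in Rb2 1 and PBS 4. In PBS the order of the libraries by this sum was that of Erbb3, with PBS 2 highest, and in Rb2 the highest was Rb2 4 in both; the part of these cells in the Erbb3 values was not tested.

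**Figure D3:**
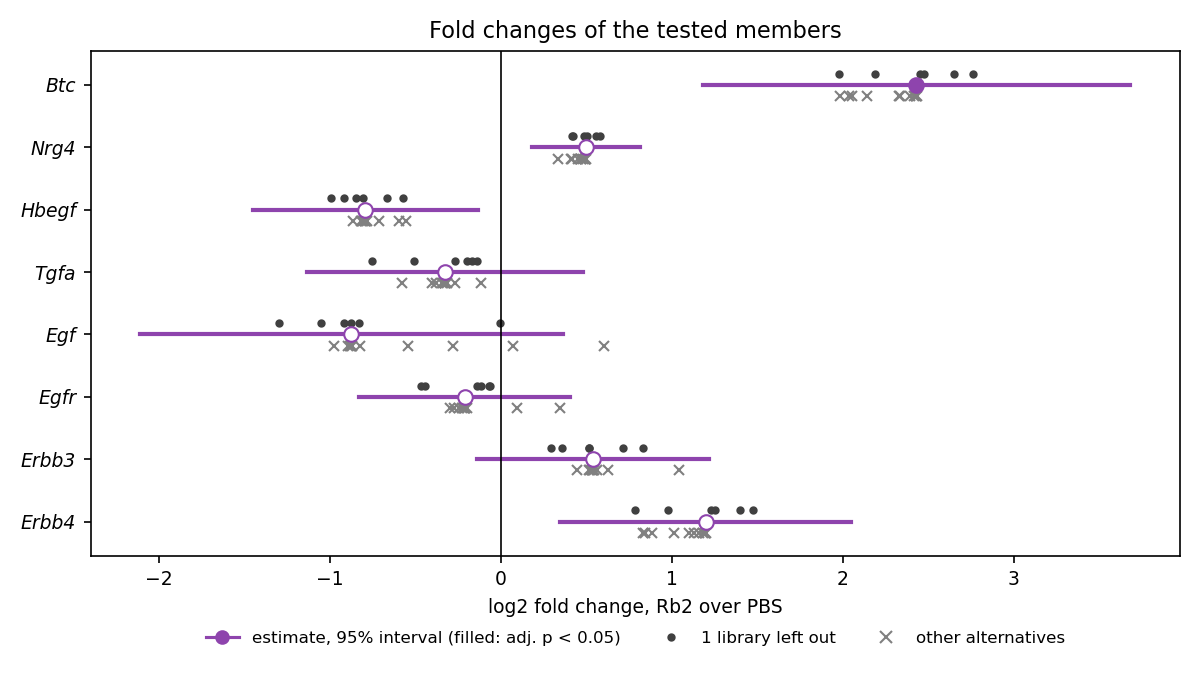
Log2 fold change, Rb2 over PBS, of the 8 tested members (circles with 95% intervals, filled where the adjusted p is under 0.05), with the same value when 1 library is left out (dots) and under the other alternatives (crosses). The estimates of Btc, Nrg4, Erbb3 and Erbb4 stay above 0 and those of Hbegf and Tgfa below 0 in every alternative. The estimates of Egf and Egfr cross 0. The 95% intervals of Tgfa, Egf, Egfr and Erbb3 include 0.

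Per kilobase of the longest RefSeq-matched transcript, Nrg4 stood apart from all other members in both groups, at 51.0 ± 5.99 CPM per kb with Rb2 and 36.1 ± 3.56 CPM per kb with PBS. Btc followed, at 5.15 ± 2.72 CPM per kb with Rb2 and 0.955 ± 0.321 CPM per kb with PBS. With Rb2 the order went on with Erbb3 at 0.711, Hbegf at 0.436, Erbb4 at 0.393, Egfr at 0.340, Tgfa at 0.201 and Egf at 0.0883 CPM per kb. With PBS it was Hbegf at 0.756, Erbb3 at 0.490, Egfr at 0.394, Tgfa at 0.252, Erbb4 at 0.171 and Egf at 0.162 CPM per kb.

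In PBS only the step between Nrg4 and Btc had no overlap between neighbours; every later pair of neighbours overlapped over the 3 libraries. In Rb2 the steps from Nrg4 to Btc, from Btc to Erbb3 and from Tgfa to Egf had none. Btc thus overlapped with Hbegf in PBS and was above every other member but Nrg4 in Rb2. Egfr has a RefSeq transcript of 2943 bases beside that of 10208 bases, and per kilobase of the shorter one it would be at 1.18 CPM per kb with Rb2 and 1.37 CPM per kb with PBS, above Btc in PBS. Reads of Btc per read of Nrg4 were 0.227, 0.133 and 0.0836 in Rb2 1, 3 and 4 and 0.0389, 0.0282 and 0.0496 in PBS 1, 2 and 4, without overlap.

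**Figure D4:**
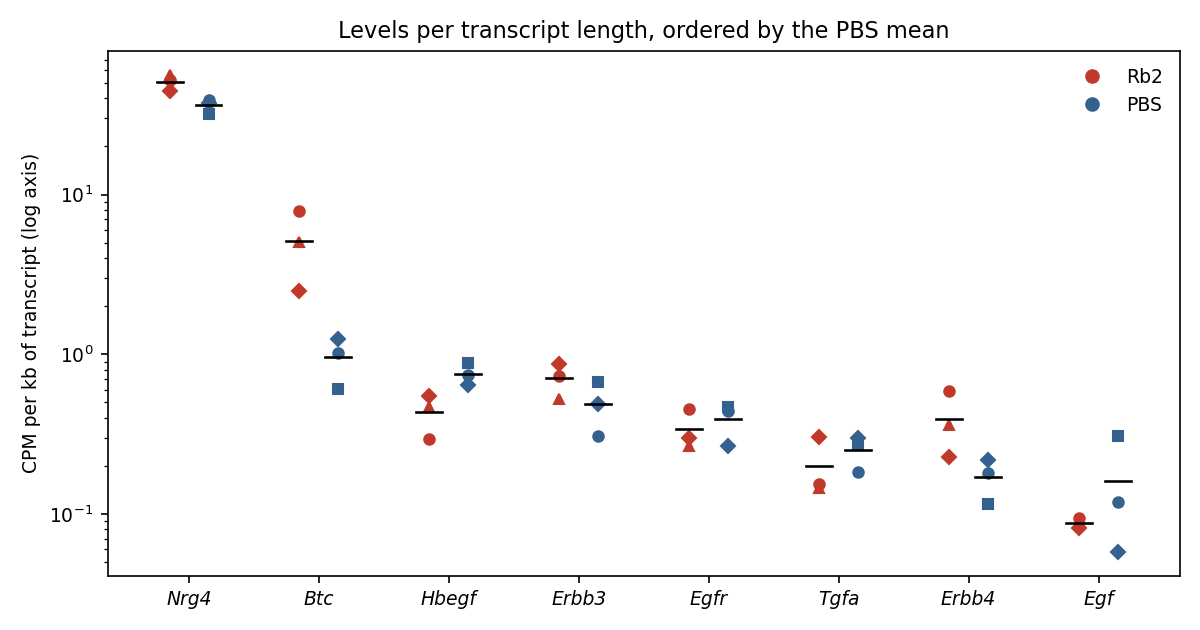
Level of the 8 tested members per kilobase of transcript (CPM per kb, log axis), ordered by the PBS mean; each group has 3 library points and a line at their mean. Nrg4 is at 36.1 CPM per kb or above on average in both groups, and Btc has a mean of 5.15 CPM per kb in Rb2 and overlaps with Hbegf in PBS.

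Over the 6 libraries the genes with patterns most like Btc, by Pearson r of log2 CPM among 16706 genes, were Zfp882 (r = 0.998), Crot (0.997), Ccpg1 (0.997), Ap5m1 (0.997) and Rbbp7 (0.996). Their log2 fold changes were smaller than that of Btc, from 0.25 to 0.71, and Crot (adjusted p = 0.0187) and Ap5m1 (adjusted p = 0.0311) passed the threshold. The pattern was a common one, since 576 genes had an r over 0.95 with Btc. For Nrg4 the closest were 4930453N24Rik (0.999), Tmem135 (0.997), Cpeb1 (0.996), Bpnt1 (0.995) and Zfp963 (0.994), and 289 genes had an r over 0.95. These values describe likeness over 6 libraries that share their group differences, with no p given.

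The wider system around these receptors was read from lists of 76 further genes. Of the 70 tested, 4 rose and 7 fell, beside 5.33% higher and 5.11% lower of all tested genes, with a median log2 fold change of -0.02. Erbb2, the receptor with no known ligand of its own that pairs with the other ErbB receptors, was at 2.75, 3.50 and 3.77 CPM in Rb2 1, 3 and 4, against 4.03, 6.12 and 4.73 CPM in PBS 1, 2 and 4. Its groups did not overlap and it did not pass (log2 fold change -0.57 ± 0.22 SE, adjusted p = 0.115). Nrg2 had 19, 15 and 17 reads in Rb2 1, 3 and 4 and 6, 10 and 71 reads in PBS 1, 2 and 4 (adjusted p = 0.634), and Nrg3 had 0 reads in all 6 libraries.

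**Figure D5:**
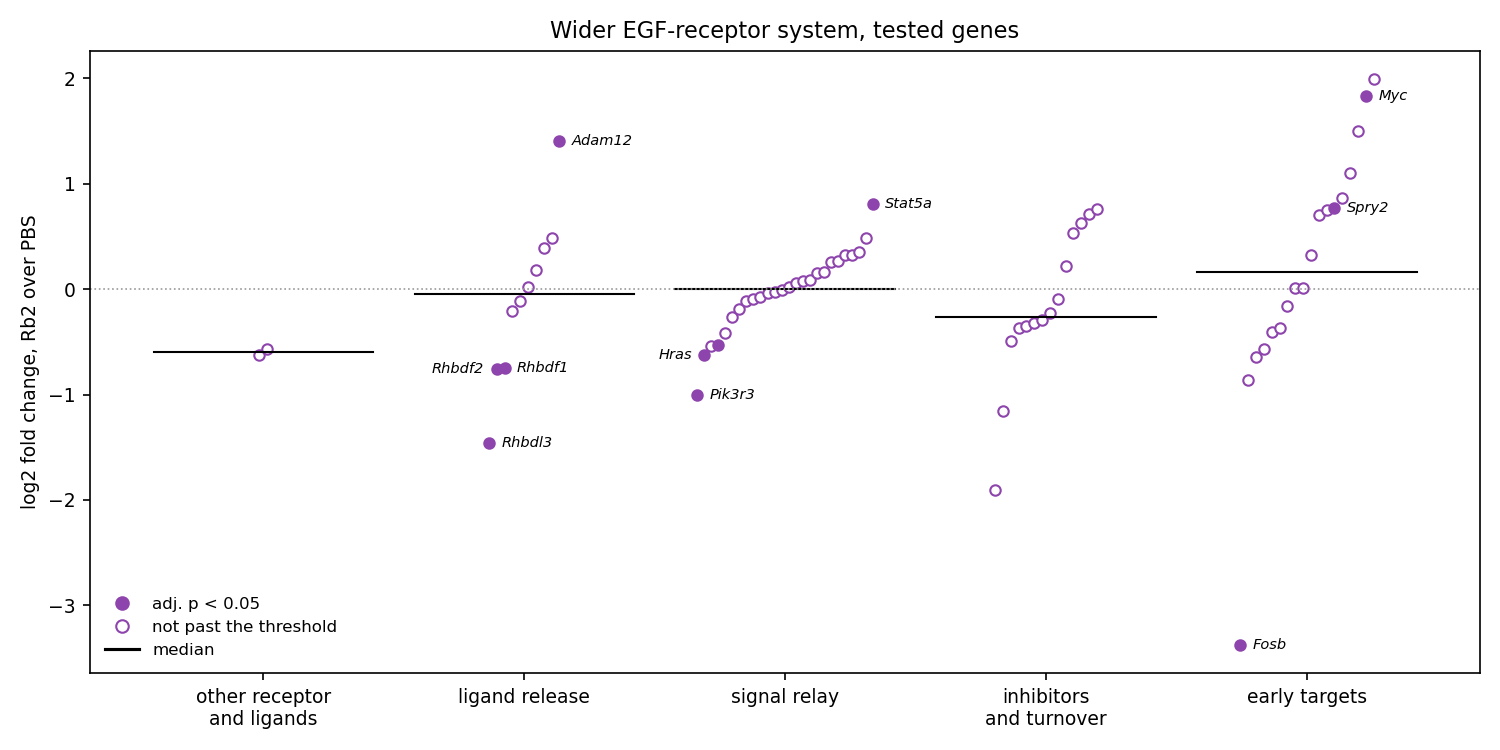
Log2 fold change, Rb2 over PBS, of the 70 tested genes of the wider EGF-receptor system by role (1 point per gene, filled where the adjusted p is under 0.05, with the genes described in the text named, lines at the medians). The called genes range from -3.38 (Fosb) to 1.83 (Myc), and the medians of the larger groups lie between -0.26 and 0.17.

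Among 10 tested genes of ligand release, 1 rose and 3 fell, beside 5.33% higher and 5.11% lower of all tested genes. Adam12, a membrane metalloproteinase that can shed EGF-family ligands, was at 60.4, 63.5 and 37.2 CPM in Rb2 1, 3 and 4, against 21.2, 18.4 and 21.3 CPM in PBS 1, 2 and 4. It rose without overlap (log2 fold change 1.40 ± 0.20 SE, adjusted p = 0.00679) and was called whichever library was left out. Adam17, the main sheddase of several of these ligands, was at 28.9 ± 2.33 CPM with Rb2 and 28.4 ± 2.47 CPM with PBS (0.02 ± 0.12 SE, 95% interval -0.26 to 0.30, adjusted p = 0.921).

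Both inactive rhomboid genes whose proteins escort ADAM17 to the cell surface fell. Rhbdf1 was at 7.94, 7.33 and 7.93 CPM in Rb2 1, 3 and 4, against 13.2, 14.0 and 11.7 CPM in PBS 1, 2 and 4 (log2 fold change -0.74 ± 0.13 SE, adjusted p = 0.0124). Rhbdf2 was at 8.67, 6.63 and 8.03 CPM in Rb2 1, 3 and 4, against 11.8, 13.0 and 14.6 CPM in PBS 1, 2 and 4 (-0.76 ± 0.15 SE, adjusted p = 0.0179). Neither pair of groups overlapped, and the Rhbdf2 call ended after correction for GC content and length (adjusted p = 0.0809). Rhbdl3, a member of the rhomboid protease family, fell to 1.19 ± 0.230 CPM with Rb2, against 3.27 ± 0.771 CPM with PBS (-1.46 ± 0.26 SE, adjusted p = 0.0131). Each of these 3 calls was lost in at least 2 of the 6 tests with 1 library left out, where the adjusted p reached 0.0635 at most.

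Of 26 genes that relay the signal, 1 rose and 3 fell, beside 5.33% higher and 5.11% lower of all tested genes. Hras, which encodes a Ras GTPase, fell to 30.5 ± 3.88 CPM with Rb2, against 47.1 ± 2.93 CPM with PBS (log2 fold change -0.62 ± 0.13 SE, adjusted p = 0.0216). Pik3r3, a regulatory subunit of phosphatidylinositol 3-kinase, fell to 6.76 ± 1.34 CPM with Rb2, against 13.6 ± 2.39 CPM with PBS (-1.01 ± 0.19 SE, adjusted p = 0.0149). Stat5a, a transcription factor that ErbB4 and cytokine receptors can activate, rose to 41.6 ± 6.13 CPM with Rb2, against 23.8 ± 3.08 CPM with PBS (0.81 ± 0.15 SE, adjusted p = 0.0145). The call was kept in 2 of the 6 tests with 1 library left out for Hras, 3 for Pik3r3 and 4 for Stat5a. In this list 22 genes did not pass.

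None of the 14 genes of receptor inhibition and turnover passed edgeR's threshold. An unadjusted p under 0.05 was found for 6 of them, beside 5020 of all 16707 tested genes. Errfi1, a feedback inhibitor of the ErbB kinases, was at 42.5, 6.57 and 9.33 CPM in Rb2 1, 3 and 4, against 43.1, 41.5 and 45.9 CPM in PBS 1, 2 and 4. Rb2 1 was within the PBS range and the other 2 Rb2 libraries were far below it (log2 fold change -1.16 ± 0.82 SE, adjusted p = 0.408).

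Early target genes of growth factor signalling went both ways, with 2 of 18 higher and 1 lower. The shares of all tested genes were 5.33% higher and 5.11% lower. Fosb, which encodes an AP-1 protein of the Fos family, had 12, 5 and 10 reads in Rb2 1, 3 and 4, against 90, 85 and 125 reads in PBS 1, 2 and 4. It fell by a log2 fold change of -3.38 ± 0.40 SE (adjusted p = 0.00380) and was called whichever library was left out. Myc, a growth-promoting transcription factor, had 313, 404 and 196 reads in Rb2 1, 3 and 4, against 77, 89 and 111 reads in PBS 1, 2 and 4, and rose (1.83 ± 0.31 SE, adjusted p = 0.0113). Spry2, a feedback antagonist of receptor kinases, rose to 8.84 ± 1.06 CPM with Rb2, against 5.18 ± 0.156 CPM with PBS (0.77 ± 0.15 SE, adjusted p = 0.0166). The Myc call was kept in 4 of the 6 tests with 1 library left out, and the Spry2 call in 3. Of the 11 calls in the wider lists, 2 remained without PBS 1, 3 without PBS 2, 7 without Rb2 1, 6 without Rb2 3 and all 11 without PBS 4 or without Rb2 4.

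Markers of other cells moved beside these genes. Of 8 endothelial markers 3 fell and none rose, beside 5.11% lower and 5.33% higher of all tested genes. The endothelial sums were 766 to 1141 CPM with Rb2 and 1326 to 1497 CPM with PBS. Of 7 macrophage markers 3 fell and none rose, with sums of 65.9 to 95.8 CPM with Rb2 and 98.5 to 130 CPM with PBS. Of 7 fibroblast and progenitor markers none passed, while 5 had an unadjusted p under 0.05 in edgeR, beside 5020 of all 16707 tested genes. Their sums were 478 to 673 CPM with Rb2 and 681 to 891 CPM with PBS. Of 6 mural cell markers 1 fell, with sums of 632 to 709 CPM with Rb2 and 765 to 795 CPM with PBS. In each of these 4 lists every Rb2 sum was below every PBS sum and no marker was at 0 in any library. Single markers did not all follow the sums. Of the endothelial markers 4 were lower without overlap, while Kdr, Tek, Emcn and Tie1 overlapped. Of the macrophage markers 3 were lower without overlap, while Adgre1, Cd68, Lyz2 and Mrc1 overlapped. Of the fibroblast and progenitor markers 4 were lower without overlap and 1, Pdgfra, was higher without overlap (log2 fold change 0.27, adjusted p = 0.207). Of the mural markers 2 were lower without overlap, while Acta2 (-0.69), Rgs5 (-0.13), Cspg4 (0.07) and Pdgfrb (-0.06) overlapped. Rgs5 had the highest level of the 6, with means of 479 CPM with Rb2 and 525 CPM with PBS. Over all tested genes 35.8% did not overlap. The part of these cells in the lower values of Hbegf, Erbb2, Rhbdf1 and Rhbdf2 was not tested.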

How the data were processed

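The authors deposited raw read counts per gene for 6 libraries made with a stranded mRNA kit, per the labels' protocols. Trimmomatic, HISAT2, Bowtie2, StringTie and mm10 are named in the submitters' processing notes; their roles, the counting program and its strand setting: not given in the sources used here. Column numbers do not match the titles' numbers, so columns were mapped to groups only. Counts were tested with edgeR 4.0.16 (R 4.3.3): TMM factors, default filter (count minimum 10, total minimum 15), robust quasi-likelihood F test, Benjamini-Hochberg over 16707 genes. SE is the log2 fold change over the square root of F, and 95% intervals use the moderated degrees of freedom. Alternatives used DESeq2 1.42.0, limma 3.58.1, other scalings and filters, left-out libraries, a muscle covariate, and an offset from splines with 5 degrees of freedom for GC content and length of the longest GENCODE transcript (94.4% of tested genes). Pearson r of log2 CPM between libraries was 0.920 to 0.979, so none was a duplicate. Positions and promoters are RefSeq GRCm38.p6, the assembly mm10 stands for. All members are named; of the wider lists, the called genes (1 is counted but not reported here) and Erbb2, Ereg, Epgn, Nrg2, Nrg3, Adam17 and Errfi1 are, with the 5 genes closest to Btc and to Nrg4 by Pearson r; Elovl3 and Pmp2 were named after their values were seen. Members and lists were chosen with earlier results of these data known.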

Additional observations from a re-analysis of the deposited data

How the results depend on the processing

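The count of called genes, 1743, was 3295 with the DESeq2 Wald test, 919 with the muscle covariate, 303 (without PBS 2) to 2269 (without Rb2 4) with 1 library left out, and 0 without PBS 1 and PBS 2 in edgeR, where 2063 genes had an unadjusted p under 0.05. The count of called members, 1, was 3 with the Wald test, 2 with a count minimum of 50, and 0 to 3 with 1 library left out. It was 0 with limma-voom, without a filter and with the GC and length offset (4, 4 and 5 members with an unadjusted p under 0.05), and 0 without PBS 1 and PBS 2 (0 members). The count in the wider lists, 11, was 19 with the Wald test, 2 to 17 with 1 library left out, and 0 without PBS 1 and PBS 2 (16 genes with an unadjusted p under 0.05). The other scalings and filters kept these 3 counts within 1.5 times. Over all tested genes an unadjusted p under 0.05 was found for 4969 of 16707 with limma-voom. It was found for 5497 of 24703 without a filter and for 4534 of 15779 with the GC and length offset. Egf turned to 0.61 and Egfr to 0.35 on the log2 scale without PBS 1 and PBS 2. Among the alternative values of single members, 116 kept direction and side of the threshold, 10 no longer passed, 5 newly passed and 4 changed direction. The cause of these changes was not tested. Nrg1 and Areg had too few reads to be tested.

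A block on the title numbers could not be fitted, since the columns do not carry them. A replicate block on the column numbers 1 and 4, chosen after seeing the data, uses 4 libraries. It gave 52 called genes, 0 members and 0 wider genes, with Egf at 0.071 and Egfr at 0.10. An unadjusted p under 0.05 was found for 2379 of 16949 genes, 2 members and 15 wider genes. Deviations of same-numbered libraries correlated at -0.20 and -0.22 across genes.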
